A study of Mus musculus with 12 samples.

Results

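This account follows 10 genes, Mir145 and 9 genes of smooth muscle and the cells around blood vessels, through RNA sequencing of newborn mouse skull. They are 10 of the 23358 rows of the deposited count table, and 10 of 10 passed the filter on low counts that left 16190 genes. The members were picked by name: Mir145 was picked because its row was higher in mutants on C57BL/6 in these same data, and Acta2, Myh11, Tagln, Cnn1, Mylk, Myocd, Smtn, Lmod1 and Pdgfrb were set beside it to ask whether that difference goes with smooth muscle genes. Values from the comparison of C57BL/6 mutants with C57BL/6 wild type are therefore descriptions here, with no test for any member.

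The tissue was frontal bone of mice at postnatal day 3, with the nasal bone attached and 2 sutures, the coronal and the frontonasal. Of the 4 groups, 2 were wild type, on C57BL/6 and on BALB/c, and 2 carried the FGFR2C342Y/+ genotype, a heterozygous mutation used as a model of Crouzon syndrome, on the same backgrounds. Each group had 3 samples, and the labels name no treatment. The labels do not say whether the 3 samples of a group came from separate animals, so p-values measure only the spread between these samples, and the sample descriptions carry 1 flow cell name for C57BL/6 and another for BALB/c, so that strain and flow cell cannot be told apart.

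Smooth muscle cells contract through an actin and myosin apparatus, whose genes are switched on by the DNA-binding factor SRF with its coactivator myocardin. Mir143 and Mir145 are a pair of microRNAs made from 1 host transcript. In vessel walls they are known as markers of the contractile state that act against factors such as Klf4, which represses contractile genes. Bone is rich in vessels, whose walls hold smooth muscle cells and pericytes, and alpha smooth muscle actin is also made by myofibroblasts and by some suture and periosteal mesenchyme.

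Total gene counts ran from 27.2 M to 46.5 M a sample. All deposited counts are even, so both reads of a pair may have been counted. The low counts given below would then stand for fewer fragments. The sample labels fit a bone tissue: the summed level of 8 osteoblast markers lay between 61358 and 140715 CPM (counts scaled to the library size, with TMM factors) in the 12 samples. Some libraries stood apart. BALB/c mutant replicate 16 had 434 CPM summed over 11 skeletal muscle markers, against 17.1 and 39.6 CPM in the other BALB/c mutants and 16.7 to 24.5 CPM in BALB/c wild type. C57BL/6 mutant replicate 4 had 73.2 CPM summed over 7 markers of ciliated and surface epithelium, against 6.79 and 8.51 CPM in the other C57BL/6 mutants, while the 3 C57BL/6 wild type samples had 123 to 236 CPM. C57BL/6 wild type replicate 2 had 86.1 CPM of the skeletal muscle markers, against 14.3 and 9.81 CPM in the other samples of its group, and 208 CPM summed over 6 markers of myoepithelial and basal epithelial cells, against 22.1 and 11 CPM. Y-linked transcripts were high (at least 4846 counts, against at most 60 in the other samples) in 3 of 3 C57BL/6 wild type samples and in 1 of 3 samples of each other group, so sex-linked transcripts were unevenly split between the groups.

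Of the 10 members, 5 had an entry in the RefSeq promoter table of GRCm38.p6: Acta2, Cnn1, Smtn, Lmod1 and Mylk. The upstream window of Acta2 is shown because it was the single one of these 5 with a match to the CArG box, the element that SRF binds, when both strands were searched and 1 C or G was allowed in the A and T core. It is the minus strand of chr19:34255374-34255623, the 250 bases before the table's start site, with the 2 matches in capitals, beginning 84 and 34 bases upstream of the start.
Acta2: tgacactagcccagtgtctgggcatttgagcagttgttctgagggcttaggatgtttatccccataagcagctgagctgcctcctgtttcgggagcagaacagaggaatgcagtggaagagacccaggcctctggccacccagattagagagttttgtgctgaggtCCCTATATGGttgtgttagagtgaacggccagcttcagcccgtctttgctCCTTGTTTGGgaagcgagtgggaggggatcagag
With this looser core, 8.59% of 32851 promoter windows of the same length held a match, and with a core of A and T alone 1.47% did. The Acta2 window held 0 of the strict form. A match is a description of letters and not of a bound site.

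Compared per length, as the RPKM values deposited by the authors allow, the most abundant members over the 12 samples were Acta2 (54.6 RPKM ± 15.6), Smtn (37.3 ± 3.40), Pdgfrb (34.0 ± 1.59) and Tagln (32.5 ± 9.15; SD, n = 12). Mylk followed at 14.8 RPKM ± 1.36 (SD, n = 12). Neighbours among the first 4 had overlapping ranges, while Acta2 (38.5 to 87.5 RPKM) was above Pdgfrb (32.2 to 36.7 RPKM) in every sample. The ranges of Mylk (12.1 to 16.7 RPKM) and Tagln (17.9 to 45.8 RPKM) did not overlap. The genes most restricted to contractile cells were far lower: Myh11, the smooth muscle myosin heavy chain, had 3.05 RPKM ± 2.69, Cnn1 1.44 ± 1.02, Lmod1 0.463 ± 0.295 and Myocd 0.143 ± 0.0742 (SD, n = 12). The 2 hairpin rows are too short to be compared with genes per length.

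Mir145 lies on chromosome 18 from 61647825 to 61647894 and Mir143 from 61649196 to 61649258 in the authors' table, whose build is mm10 per the submitters' processing notes. Both hairpins lie inside the row E330013P06 (chromosome 18, 61645878 to 61665538), which RefSeq names Carmn, the long noncoding host transcript, and no Carmn exon of the GENCODE annotation of GRCm38 covers either hairpin. The long noncoding gene Bvht overlaps the host span on the opposite strand, and the strand setting of the counting is not given in the sources used here. The libraries were mRNA libraries, so the hairpin rows count reads over the hairpin and do not measure the mature microRNA.

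In C57BL/6 mutants the rows of the Mir143 and Mir145 locus were higher than in wild type. Of the 8 smooth muscle members other than Pdgfrb, Tagln and Acta2 were lower without overlap of the groups, and the groups of the other 6 overlapped. Mir145 had 26, 12 and 32 counts in C57BL/6 wild type and 136, 110 and 102 in C57BL/6 mutants, or 0.675, 0.361 and 0.858 CPM against 3.07, 2.67 and 2.75 CPM. The groups did not overlap, and the log2 fold change was 2.15 (SE 0.369). It stayed at 2.10 with the level of Ddx3y, a Y-linked gene, as a covariate, at 2.08 with C57BL/6 mutant replicate 4 and BALB/c mutant replicate 16 left out, and at 1.88 without C57BL/6 wild type replicate 2.

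Mir143, the partner hairpin, had 0.831, 0.964 and 0.911 CPM in C57BL/6 wild type and 1.85, 2.67 and 2.42 CPM in C57BL/6 mutants. The log2 fold change was 1.36 (SE 0.454), without overlap of the groups. The host row E330013P06 had 8.52, 12.6 and 8.68 CPM against 22.9, 21.3 and 25.2 CPM. These groups did not overlap either, at a log2 fold change of 1.22 (SE 0.225). These 2 rows are not members, but they share their locus with Mir145 and the samples on which it was chosen, so their values are descriptions too and give no independent support for it. Of the 63 microRNA rows that passed the filter, 6.35% were called in C57BL/6, 3 higher (Mir145, Mir143 and Mir126) and 1 lower (Mir451), against 23.9% of all genes. Over 14 alternatives Mir143 was called in 7, at log2 fold changes of 1.16 to 1.63, and E330013P06 in 14.

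**Figure D1:**
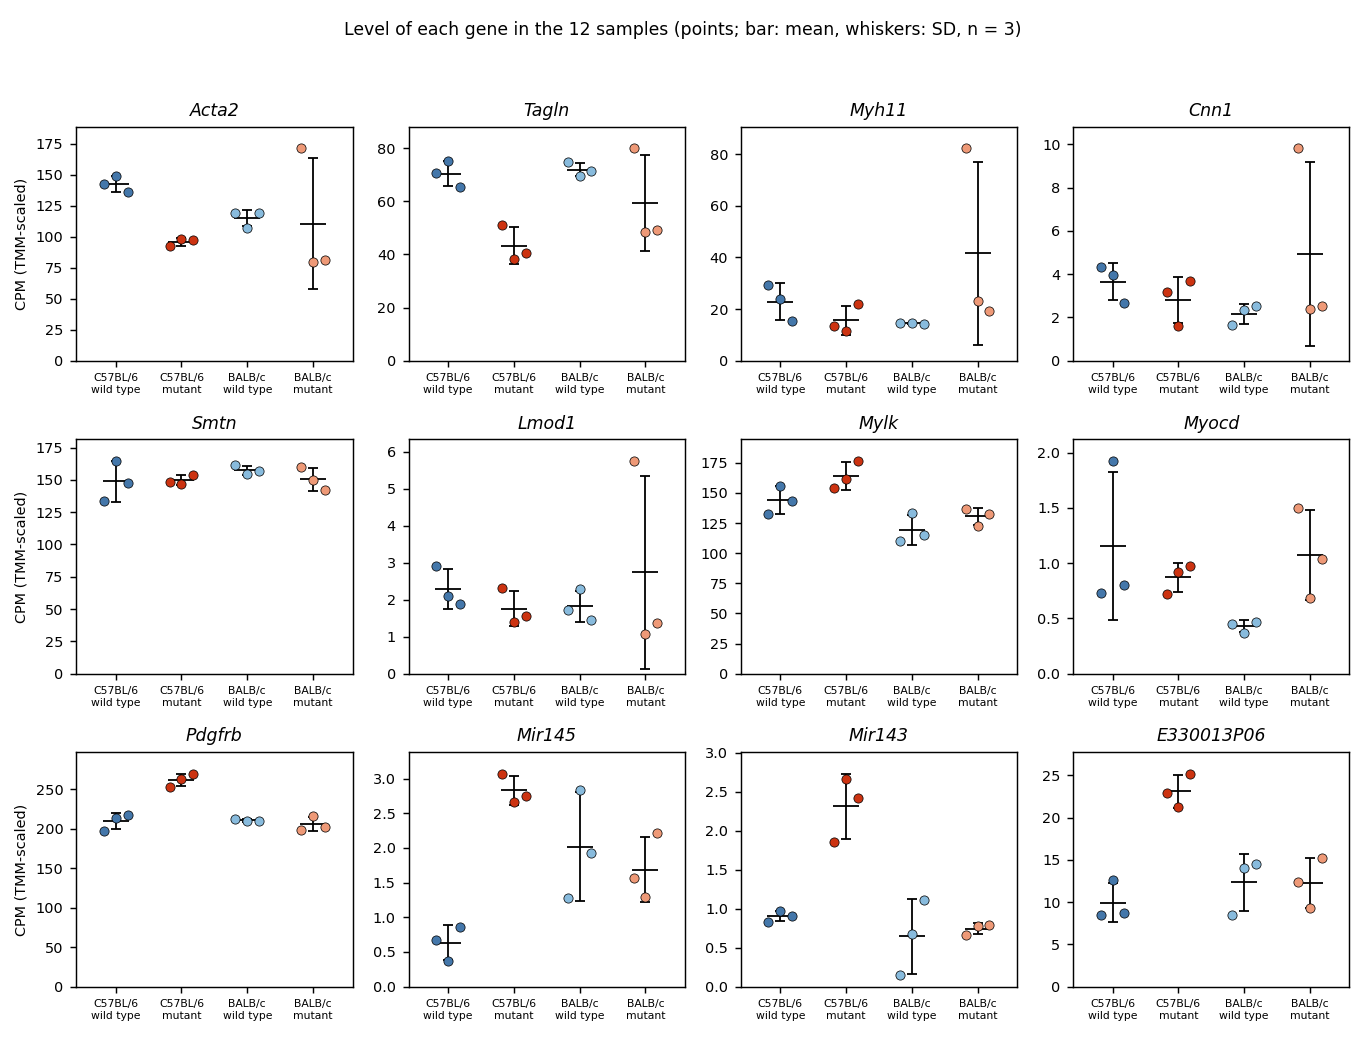
CPM (TMM-scaled) of the 10 members and of 2 further rows of the Mir145 locus in each of the 12 samples, by strain and genotype (points: samples; bar: mean; whiskers: SD, n = 3). Mir145 is lowest in the 3 C57BL/6 wild type samples (at most 0.858 CPM), Mir143 and E330013P06 are highest in the 3 C57BL/6 mutants, and BALB/c mutant replicate 16, the first point of its group, sits far above its replicates for Acta2, Tagln, Myh11, Cnn1 and Lmod1.

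Among the contractile genes, Tagln (transgelin, an actin-binding protein; chromosome 9, 45929628 to 45936058) had 70.6, 75.1 and 65.5 CPM in C57BL/6 wild type and 51.1, 38.5 and 40.5 CPM in C57BL/6 mutants. All 3 mutants were below all 3 wild type samples, with a log2 fold change of -0.70 (SE 0.169). The Tagln row overlaps Pcsk7 on the other strand, so reads of the 2 genes may not be told apart. GENCODE exons of other genes on the opposite strand also overlap the spans of Mylk, Smtn and Lmod1. Acta2 (alpha smooth muscle actin; chromosome 19, 34241091 to 34255336) had 143, 149 and 136 CPM against 92.4, 98 and 97 CPM. These groups did not overlap either, and the log2 fold change was -0.57 (SE 0.227).

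Myh11 (chromosome 16, 14194527 to 14291408) had 29.5, 23.8 and 15.4 CPM in wild type and 13.5, 11.5 and 22.0 CPM in mutants of C57BL/6. Its groups overlapped, since mutant replicate 6 was above wild type replicate 3, and the log2 fold change was -0.55 (SE 0.471). Cnn1 (calponin, which binds actin and slows myosin; chromosome 9, 22099253 to 22109221) and Lmod1 (leiomodin, which nucleates actin filaments; chromosome 1, 135324813 to 135368065) gave -0.38 each (SE 0.50 and 0.525) with overlapping groups. These 2 genes had 58 to 166 counts a sample in C57BL/6. With the Ddx3y covariate Myh11 was at -0.03, Cnn1 at 0.20 and Lmod1 at 0.02, so the direction of the last 2 depended on it. Smtn (smoothelin, a cytoskeletal protein; chromosome 11, 3517522 to 3539292) was at 149 CPM ± 15.5 in wild type and 150 CPM ± 3.77 in mutants (SD, n = 3), a log2 fold change of 0.01 (SE 0.0731).

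Mylk (myosin light chain kinase, which triggers contraction; chromosome 16, 34784950 to 35002434) had 133, 156 and 143 CPM in C57BL/6 wild type and 154, 162 and 177 CPM in mutants. Its groups overlapped by 1 sample, at a log2 fold change of 0.19 (SE 0.0860). Myocd (myocardin; chromosome 11, 65176571 to 65269989) had 28, 64 and 30 counts against 32, 38 and 36, and its log2 fold change of -0.40 (SE 0.412) rested on wild type replicate 2, one of the libraries with skeletal muscle markers, without which it was 0.19. Pdgfrb (the PDGF receptor of pericytes and mesenchymal cells; chromosome 18, 61045150 to 61085067) had 198, 214 and 218 CPM against 253, 262 and 270 CPM. It was higher in 3 of 3 mutants without overlap, by 0.32 on the log2 scale (SE 0.0568).

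Counted together, 3 of 10 members were past an adjusted p of 0.05 in edgeR in this comparison (Mir145 and Pdgfrb higher, Tagln lower), against 23.9% of all genes (11.3% higher and 12.6% lower), and nothing is read from that count because the members were chosen on it. Groups did not overlap for 2 members that were higher and 2 that were lower, beside 41.6% of all genes, 19.7% higher and 21.9% lower. The median over the 9 members other than Mir145 was -0.38 on the log2 scale, beside 0.00 over all genes. In bulk tissue, fewer cells of a type and less RNA per cell cannot be told apart. Scaling by total counts alone, without TMM factors, moved the median of all genes by -0.20 and the share of calls that were higher from 47.5% to 13.2%. Under it Mir145 was at 1.96, Pdgfrb at 0.13, Mylk at -0.00 and Smtn at -0.18, so the directions of Mylk and Smtn depended on the scaling. The authors' deposited table gives smaller log2 fold changes for the low rows, 0.63 for Mir145 and 0.34 for Mir143, and 1.11 for E330013P06, -0.72 for Tagln, -0.52 for Acta2 and 0.31 for Pdgfrb.

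In BALB/c, Mir145 was not higher in mutants. It had 1.28, 2.84 and 1.93 CPM in wild type and 1.56, 1.29 and 2.21 CPM in mutants, and the groups overlapped. The log2 fold change was -0.26 (SE 0.349, 95% interval -1.02 to 0.50, adjusted p 0.841, edgeR). Mir143 (0.17, adjusted p 0.943, SE 0.474, edgeR) and E330013P06 (-0.01, adjusted p 1, SE 0.224, edgeR) were not called either.

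None of the 10 members was called in BALB/c: 0 by edgeR, 0 by DESeq2 and 0 by limma-voom, with 3, 3 and 2 members at an unadjusted p under 0.05, against 0.136%, 2.32% and 0.272% of all genes called by these tools and 11.7% at an unadjusted p under 0.05 in edgeR. The 3 highest log2 fold changes of mutant over wild type were those of Myh11, Myocd and Cnn1, and those of Myh11 and Cnn1 were lower by more than 1.5 times without BALB/c mutant replicate 16. Myh11 had 14.5, 14.6 and 14.3 CPM in BALB/c wild type and 82.4, 23.2 and 19.3 CPM in mutants, without overlap, beside 20% of all genes in BALB/c (9.93% higher in mutants). Its log2 fold change was 1.52 (adjusted p 0.242, SE 0.478, edgeR), and the authors' deposited table gives 1.02 with a q-value of 0.0397.

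Myocd had 12, 12 and 16 counts in BALB/c wild type and 50, 32 and 42 in mutants, again without overlap, with a log2 fold change of 1.31 (adjusted p 0.269, SE 0.437, edgeR). Cnn1 was at 1.65, 2.35 and 2.52 CPM against 9.83, 2.41 and 2.51 CPM. Its log2 fold change of 1.17 (adjusted p 0.401, SE 0.509, edgeR) rested on replicate 16, the library with the most skeletal muscle markers, and was 0.18 without it.

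For Acta2 the same library was again the highest mutant, while the other 2 mutants lay on the other side of wild type. Acta2 had 119, 107 and 119 CPM in BALB/c wild type and 172, 79.4 and 80.9 CPM in mutants, so that replicate 16 was above and the other 2 mutants below all wild type samples. With the 3 mutants the log2 fold change was -0.06 (adjusted p 0.964, SE 0.227, edgeR). Without replicate 16 Acta2 fell by 0.52 on the log2 scale (adjusted p 0.0337, edgeR), when 0.0364% of all genes were called. Tagln had 74.7, 69.7 and 71.4 CPM against 80.1, 48.5 and 49.2 CPM, and gave -0.28 (adjusted p 0.577, SE 0.168, edgeR) with replicate 16 and -0.55 (adjusted p 0.0796) without it. With C57BL/6 mutant replicate 4 left out as well, Acta2 and Tagln were the 2 members called, beside 0.164% of all genes. Myh11 was at 0.56 and Myocd at 1.00 without replicate 16. The part of skeletal muscle tissue in these values was not tested.

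Smtn (-0.07, adjusted p 0.795), Mylk (0.13, adjusted p 0.619), Pdgfrb (-0.03, adjusted p 0.891) and Lmod1 (0.57, adjusted p 0.746, all edgeR) were not called between the BALB/c genotypes. Lmod1 had 1.73, 2.29 and 1.46 CPM in wild type and 5.76, 1.08 and 1.38 CPM in mutants, and without replicate 16 its value turned to -0.57. For Pdgfrb the 95% interval ran from -0.16 to 0.09.

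**Figure D2:**
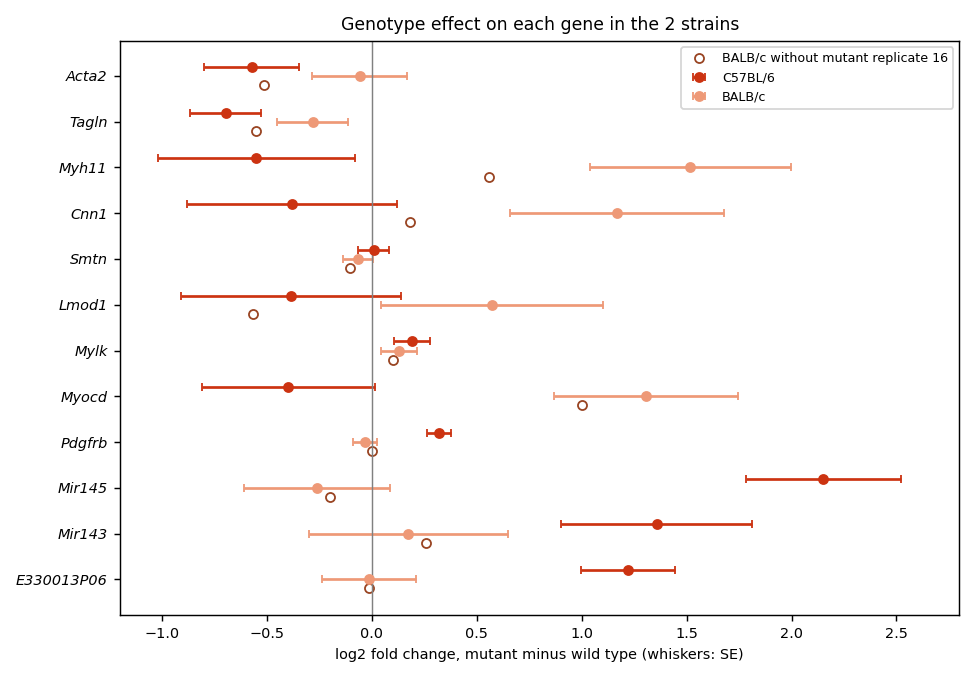
Log2 fold change of mutant against wild type in C57BL/6 and BALB/c for the 10 members, Mir143 and E330013P06 (filled points: edgeR estimate; whiskers: SE; open points: BALB/c without mutant replicate 16). Acta2 and Tagln lie below 0 in C57BL/6, and in BALB/c at -0.06 and -0.28 with all 3 mutants, neither called, and at -0.52 (adjusted p 0.0337, edgeR) and -0.55 (adjusted p 0.0796, not called) without that replicate, while Mir145 lies at 2.15 in C57BL/6 and -0.26 in BALB/c.

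The difference between the strains' genotype effects (BALB/c minus C57BL/6) was -2.41 for Mir145 (SE 0.505), -0.35 for Pdgfrb (SE 0.0804), -1.23 for E330013P06 (SE 0.317) and -1.18 for Mir143 (SE 0.655). For 6 of the 8 smooth muscle members other than Pdgfrb it was positive: 2.07 for Myh11 (SE 0.670), 1.71 for Myocd (SE 0.600), 1.55 for Cnn1 (SE 0.713), 0.96 for Lmod1 (SE 0.745), 0.51 for Acta2 (SE 0.321) and 0.42 for Tagln (SE 0.238). Without BALB/c mutant replicate 16 it was 1.11 for Myh11, 1.40 for Myocd, 0.56 for Cnn1, 0.15 for Tagln, 0.06 for Acta2 and -0.18 for Lmod1, so 5 of the 8 were then positive. Myocd was at 1.12 without C57BL/6 wild type replicate 2. Smtn (-0.07, SE 0.103) and Mylk (-0.06, SE 0.122) lay near 0, and with total counts they were at 0.15 and 0.17. Of all genes 10% were called for this difference, and 54.4% of those calls were positive, or 90.5% when scaled by total counts. These values use the contrast the members were chosen on and carry no test for the members.

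Read across all 4 groups, the rows of the locus did not share 1 pattern. For Mir145 the low group was C57BL/6 wild type, whose 3 samples (0.361 to 0.858 CPM) were below the other 9 (1.28 to 3.07 CPM). For Mir143 and E330013P06 the high group was C57BL/6 mutant: its 3 samples had 1.85 to 2.67 CPM of Mir143 and 21.3 to 25.2 CPM of E330013P06, and the other 9 had at most 1.11 and 15.2 CPM. Mir145 made up 2.60% to 8.21% of the summed counts of Mir145, Mir143 and E330013P06 in C57BL/6 wild type, 9.04% to 11.1% in C57BL/6 mutants, 11% to 16.1% in BALB/c wild type and 10.7% to 12.2% in BALB/c mutants. The lowest share, in wild type replicate 2, was 12 counts and had a 95% exact binomial (Clopper-Pearson) interval of 1.35% to 4.49%. Since all deposited counts are even, both reads of a pair may have been counted, and such intervals, which cover counting error only, would then be too narrow.

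Between the strains, wild type BALB/c samples had more Mir145 than wild type C57BL/6 samples (log2 fold change 1.67, SE 0.369, without overlap, beside 27.3% of all genes that were higher in that way), and mutant BALB/c samples had less than mutant C57BL/6 samples (-0.74, SE 0.346, without overlap). The C57BL/6 samples in both values are those on which Mir145 was chosen, so no test is given. The authors' deposited table differs for the wild types: it gives Mir145 a log2 fold change of C57BL/6 over BALB/c of 0.10 (q-value 0.698), which is the opposite direction. For the mutants the authors' deposited table gives 0.75 (q-value 0.00118), with C57BL/6 the higher in both sources. Among the 63 microRNA rows, 33.3% were called between the wild types, against 48.5% of all genes. Mir143 (log2 -0.45, SE 0.472) and E330013P06 (0.32, SE 0.226) overlapped between the wild types. Between the mutants both were lower in BALB/c without overlap (-1.64, SE 0.458, and -0.91, SE 0.222).

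The strain differences of the other 9 members use the same C57BL/6 samples and are given as descriptions as well. In wild type, 2 of the 9 were past the threshold of an adjusted p of 0.05 in edgeR, both lower in BALB/c, as 25.6% of all genes were. Mylk was at 144 CPM ± 11.7 in C57BL/6 and 119 CPM ± 12.2 in BALB/c (SD, n = 3; log2 -0.27, SE 0.0863). It was no longer past the threshold without C57BL/6 wild type replicate 2 or without BALB/c wild type replicate 13 or 15. Myocd was at 1.15 CPM ± 0.672 and 0.430 CPM ± 0.0522 (SD, n = 3; log2 -1.41, SE 0.438), and without C57BL/6 wild type replicate 2 it was at -0.83 and no longer past the threshold. That replicate is one of the libraries with skeletal muscle and basal epithelial markers, whose part in these values was not tested. With the Ddx3y covariate neither was past it. Acta2, Myh11 and Cnn1 were lower in BALB/c wild type without overlap, beside 57.5% of all genes (30.1% lower), at -0.31 (SE 0.227), -0.66 (SE 0.477) and -0.75 (SE 0.509). With the Ddx3y covariate they were at -0.000937, 0.10 and 0.0395, so the direction of Myh11 and Cnn1 turned.

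Among mutants, 3 of the other 9 members were past the threshold between strains, beside 36.9% of all genes, 18% higher and 18.9% lower. Groups did not overlap for 50.2% of all genes, 24.8% lower in BALB/c. Pdgfrb was lower in BALB/c, at 206 CPM ± 8.83 against 262 CPM ± 8.18 (SD, n = 3; log2 -0.35, SE 0.0568). Mylk was lower too, at 131 CPM ± 7.14 against 164 CPM ± 11.4 (SD, n = 3; log2 -0.33, SE 0.0861), and was not past the threshold without BALB/c mutant replicate 17. Myh11 was higher (log2 1.41, SE 0.472) with overlapping groups, and without BALB/c mutant replicate 16 it was at 0.45. It was not past the threshold without that library or without C57BL/6 mutant replicate 4 or 5. Without BALB/c mutant replicate 16, Acta2 turned from 0.21 to -0.25.

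Differences between groups set aside, Mir145 was next compared with the other genes among replicates of the same group, as deviations from the group mean in log2 CPM over the 12 samples. Of 11 relations tested, 0 passed after Benjamini-Hochberg adjustment (exact permutation within groups, 1296 arrangements, two-sided). Adjusted p-values ran from 0.792 to 0.969, and no unadjusted p was under 0.05. The closest was Smtn, in the negative direction (Pearson r -0.62, permutation p 0.131; Spearman rho -0.69, permutation p 0.0602), and without the 2 samples farthest from the median of Mir145 its r was -0.46. E330013P06 gave r 0.28 (permutation p 0.523; rho 0.16, permutation p 0.701) and 0.58 without those 2 samples. It rested on single libraries, with r 0.84 without C57BL/6 wild type replicate 2 (permutation p adjusted over the 11 relations 0.637) and -0.13 without BALB/c wild type replicate 13 (adjusted p 0.884). Mir143 gave r 0.39 (permutation p 0.585; rho 0.15, permutation p 0.735), which rested on BALB/c wild type replicate 13, and without that sample r was -0.41. Acta2 gave r -0.21 (permutation p 0.644; rho -0.54, permutation p 0.137), Tagln -0.19 and Myh11 -0.21. Mir145 had 12 to 136 counts a sample, and how weak a relation these 12 samples could show was not tested.

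**Figure D3:**
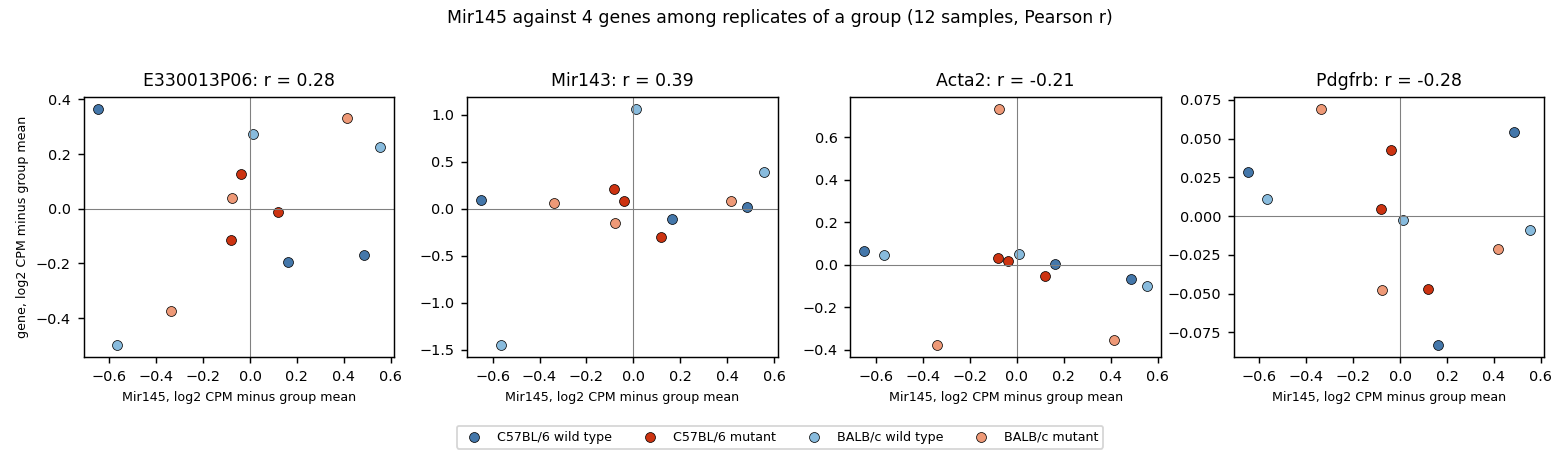
Deviation of each sample from its group's mean log2 CPM, for Mir145 (x axis) and for E330013P06, Mir143, Acta2 and Pdgfrb (y axes), in the 12 samples coloured by group. Pearson r lies between -0.28 and 0.39 in the 4 panels, and none of the 4 relations passed the permutation test.

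Over all 12 samples, group differences included, the named genes most like Mir145 by Pearson's r of log2 CPM were Atp6v1e1 (0.93) and Atp6v0b (0.91), both subunits of the proton pump that acidifies lysosomes, Rab38 (0.92), a small GTPase, Galnt6 (0.92), a glycosyltransferase, and Sqstm1 (0.92), an autophagy receptor. Of 16189 genes ranked, E330013P06 was 557th (r 0.70), Pdgfrb 2114th (0.50) and Mir143 3675th (0.36), while Acta2 was 14619th (-0.61). For Myh11 the same ranking was led by Mbp (0.95), the myelin basic protein, Col28a1 (0.93), Art3 (0.93), Atp2a1 (0.93), the calcium pump of fast skeletal muscle, and Hspa12a (0.92). Without BALB/c mutant replicate 16 these 5 values were 0.85, 0.73, 0.75, 0.72 and 0.69. Cnn1 was 9th (0.90) and Lmod1 147th (0.72), and without that library they were at 0.74 and 0.16. Samples of 1 group share their strain and genotype, and total counts differ between samples, so these values describe likeness and carry no test.

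Other genes of the contractile apparatus, taken from a list of 18, were mostly not called in C57BL/6 mutants: 1 rose, 3 fell and 14 were not called (of all genes 11.3% rose and 12.6% fell), with a median log2 fold change of -0.07 beside 0.00 for all genes. This list and those below were chosen with earlier results of these data known, so their counts and p-values are descriptions. Synpo2, an actin-bundling protein, fell from 4.6 CPM ± 0.386 to 1.66 CPM ± 0.246 (SD, n = 3; log2 -1.47, adjusted p 0.0397, edgeR). Itga8, the alpha8 integrin of smooth muscle and fibroblasts, fell from 25.0 CPM ± 3.62 to 16.3 CPM ± 0.837 (log2 -0.62, adjusted p 0.00186), and Myl9, the regulatory myosin light chain, from 89.3 CPM ± 8.53 to 62.6 CPM ± 1.17 (SD, n = 3; log2 -0.51, adjusted p 0.0425, edgeR). Actg2, gamma smooth muscle actin, was lower without overlap, at 9.39 CPM ± 1.13 and 5.14 CPM ± 0.905 (SD, n = 3), and was not called (log2 -0.87, adjusted p 0.142, edgeR). Lpp, which sits at focal adhesions, was the gene that rose (log2 0.27, adjusted p 0.0264, edgeR). With total counts 0 rose and 5 fell. In BALB/c 0 of 18 were called by edgeR, 2 by DESeq2 and 0 by limma-voom, beside 0.136%, 2.32% and 0.272% of all genes, with 5 at an unadjusted p under 0.05 in edgeR, beside 11.7%.

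Of 12 pericyte genes, 2 rose and 0 fell in C57BL/6 with TMM scaling (median 0.15), a share near the 11.3% of all genes that rose. They were Notch3, the receptor that mural cells need, from 184 CPM ± 7.92 to 215 CPM ± 14.1 (SD, n = 3; log2 0.23, adjusted p 0.0378, edgeR), and Heyl, a Notch target, from 42.9 CPM ± 2.16 to 54.4 CPM ± 4.40 (log2 0.34, adjusted p 0.0207). Of 16 tested regulators, 7 rose and 1 fell (median 0.23), beside 11.3% and 12.6% of all genes. Foxs1, a pericyte transcription factor, rose from 8.67 CPM ± 0.627 to 14.4 CPM ± 0.659 (SD, n = 3; log2 0.73, adjusted p 0.00904, edgeR), and Klf4, which represses contractile genes, rose from 217 CPM ± 37.8 to 334 CPM ± 28.7 (log2 0.62, adjusted p 0.00611). Srf (0.43), Elk3 (0.24) and the ligands Jag1 (0.36), Pdgfb (0.48) and Pdgfa (0.34) also rose, and Csrp2, a LIM protein of smooth muscle, fell from 38.4 CPM ± 3.13 to 24.1 CPM ± 2.69 (SD, n = 3; log2 -0.67, adjusted p 0.00405, edgeR). These counts depended on the scaling: with total counts 0 pericyte genes rose and 2 fell (median -0.05), and 4 regulators rose and 2 fell (median 0.04), where the median of all genes moved by -0.20. In BALB/c 0 of 12 and 0 of 16 were called by edgeR, DESeq2 and limma-voom alike, with 3 and 1 at an unadjusted p under 0.05 in edgeR, beside 11.7% of all genes.

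Of 11 genes known as targets of miR-145 or miR-143 in smooth muscle, 4 rose in C57BL/6 mutants and 0 fell (median 0.17), beside 11.3% and 12.6% of all genes. They were Klf4, Ace (log2 0.47, adjusted p 0.0170), Ssh2 (0.37, adjusted p 0.0115) and Srgap2 (0.17, adjusted p 0.0487, all edgeR). Klf4, Klf5, Elk1 and Mkl2 are also in the list of regulators, so the lists are not separate and Klf4 is counted in both. Klf5 was lower without overlap (log2 -0.62) and was not called (adjusted p 0.0623, edgeR). With total counts 1 rose and 1 fell (median -0.02). In BALB/c 0 of 11 were called by each of the 3 tools, with 4 at an unadjusted p under 0.05 in edgeR, beside 11.7% of all genes.

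**Figure D4:**
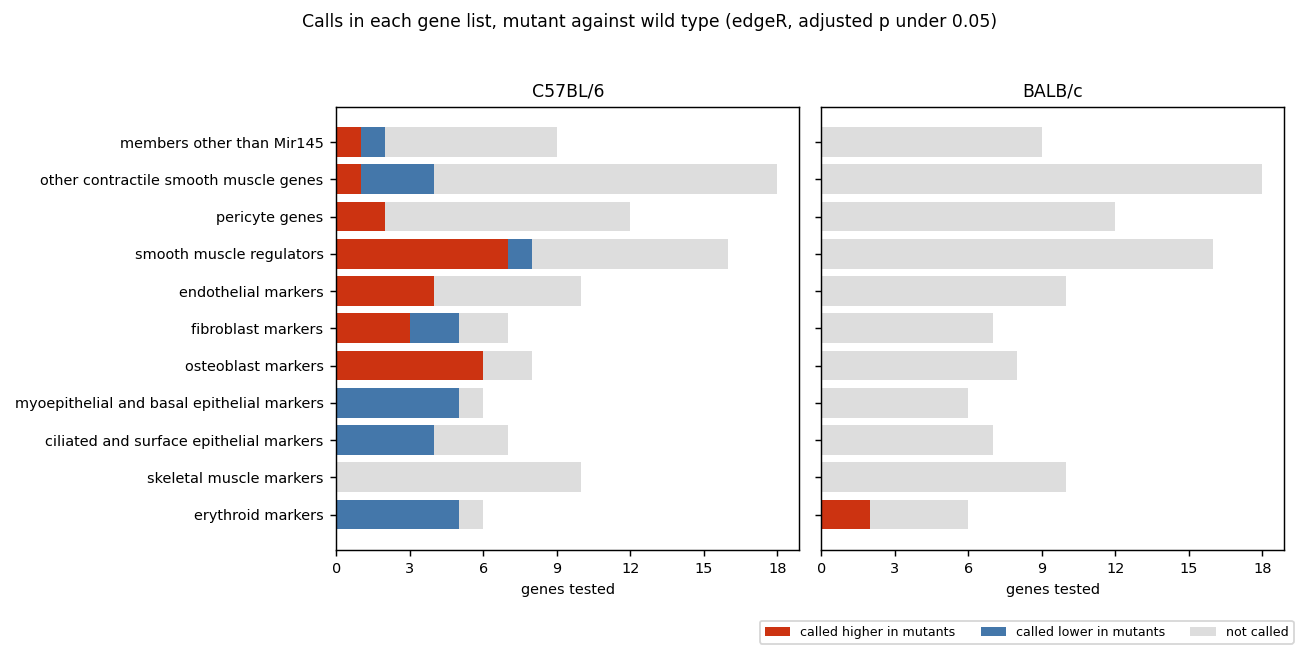
Number of genes called higher, called lower and not called in mutants against wild type (edgeR, adjusted p under 0.05) in each gene list, for C57BL/6 (left) and BALB/c (right). In C57BL/6 3 of 18 other contractile genes fell, beside 12.6% of all genes, and 7 of 16 regulators rose (4 with total counts), beside 11.3%. In BALB/c, where 0.136% of all genes were called, the erythroid list alone of those drawn has calls (2 of 6).

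Markers of other cell types moved with genotype in C57BL/6 beside these groups, where 11.3% of all genes rose and 12.6% fell. Of 10 endothelial markers 4 rose and 0 fell (1 rose and 0 fell with total counts), with a summed level of 524 to 618 CPM in wild type and 660 to 837 CPM in mutants. Of 8 osteoblast markers 6 rose and 0 fell. Of 6 myoepithelial and basal epithelial markers, 5 fell by edgeR. DESeq2 called 1 of the 6 and limma-voom 2, beside 27.8% and 29.1% of all genes. Of these cells, the myoepithelial ones also make contractile proteins. The summed level of the 6 markers was 11 to 208 CPM in wild type, highest in replicate 2, and 0.970 to 5.78 CPM in mutants. In BALB/c it was 0.443 to 1.13 CPM, with Krt14 at 0 in all 6 samples. Of 10 tested skeletal muscle markers 0 were called in C57BL/6 by edgeR (4 at an unadjusted p under 0.05, beside 39.2% of all genes) and 2 by DESeq2 (27.8% of all genes), where the summed level was 9.81 to 86.1 CPM in wild type and 8.54 to 10.9 CPM in mutants. Ciliated and surface epithelial markers fell in 4 of 7 and erythroid markers in 5 of 6, and of 7 fibroblast markers 3 rose and 2 fell. Cardiac markers had 0 of 4 called by each tool (limma-voom called 29.1% of all genes), 0 of them at an unadjusted p under 0.05, and summed levels of 2.49 to 3.93 CPM in all samples. The part of these cell types in the values of Acta2, Tagln and Mir145 was not tested. Acta2 stayed lower in C57BL/6 mutants with C57BL/6 mutant replicate 4 left out together with BALB/c mutant replicate 16 (log2 -0.55), and so did Tagln (-0.84), while with the Ddx3y covariate they were at -0.32 and -0.57. Without C57BL/6 wild type replicate 2 they were at -0.54 and -0.65.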

How the data were processed

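RNA was measured in 12 samples, 3 in each of 4 strain by genotype groups taken from the labels. Per the submitters' processing notes, reads were handled with bcl2fastq, TopHat2 2.0.6 and HTSeq on mm10, with DESeq2 for comparisons. The annotation and strand setting are not given in the sources used here. The authors deposited raw counts per gene and RPKM values. The authors also deposited a table of log2 fold changes with p-values and q-values, used here as printed.

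From the deposited counts, edgeR 4.0.16 (R 4.3.3) kept genes with filterByExpr (minimum count 10, minimum total count 15), scaled libraries by TMM and fitted 1 quasi-likelihood model with 4 group means to all 12 samples. Benjamini-Hochberg adjustment ran over all 16190 genes, with calls at an adjusted p under 0.05. Log2 CPM used a prior count of 2. The procedure was tested on simulated data. Alternatives were DESeq2 1.42.0, limma-voom (limma 3.58.1), RLE size factors, total counts, no filter, only the groups compared, a Ddx3y covariate and each replicate left out. Leaving out 2 libraries together was chosen after seeing the data.

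The members and all gene lists were chosen with earlier results of these data known. All 10 members are named. Of each list, at most 4 genes are named, those with the largest absolute log2 fold change, a mean of at least 1 CPM and no overlap between the groups. Members of a list that were called beyond these (Lpp, Srf, Elk3, Jag1, Pdgfb, Pdgfa and Srgap2), and Mir126 and Mir451, were named after their values were seen. For likeness to Mir145 and to Myh11, the 5 genes with the highest Pearson's r and a mean of at least 1 CPM are named, skipping predicted genes. At most 0.340% of the 50-base words of a member occur in other genes of the GENCODE transcripts. Of the count table's value columns, 0 belonged to no sample.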

Additional observations from a re-analysis of the deposited data

Results flagged for a closer look

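The difference between the genotype effects of the 2 strains was among the calls of the edgeR fit for 3 rows described here, as it was for 10% of all genes. It contains the C57BL/6 effect on which Mir145 was chosen, and E330013P06 shares the locus of Mir145, so the values are descriptions and carry no test. For Mir145 the effect in BALB/c minus that in C57BL/6 was -2.41 (SE 0.505), with 3 of 3 C57BL/6 mutants above all C57BL/6 wild type samples and overlapping groups in BALB/c. For Pdgfrb the difference was -0.35 (SE 0.0804), and it was -0.13 and no longer called when libraries were scaled by total counts. With 1 replicate left out, Pdgfrb was called in 8 of 12 fits. For E330013P06, the host row of Mir145, the difference was -1.23 (SE 0.317). Over 19 alternatives it ran from -1.44 to -1.01 and was called in 10. Pdgfrb was chosen with the C57BL/6 effect known as well.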

How the results depend on the processing

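No paired analysis was possible because the groups share no replicate numbers. In C57BL/6, 2 to 4 members were called over the alternatives. Tagln lost its call with the Ddx3y covariate and without C57BL/6 mutant replicate 5 or 6, and Pdgfrb lost its call with total counts. In BALB/c the number of members called was 0 to 1 when 1 replicate was left out (1 without mutant replicate 16) and 2 with C57BL/6 mutant replicate 4 and BALB/c mutant replicate 16 both left out. Between wild types it was 3, then 5 with only the groups compared, 1 with the Ddx3y covariate, 5 with both of these libraries left out, and 1 to 3 when 1 replicate was left out (1 without C57BL/6 replicate 2). The number for the difference between genotype effects was 1 to 2 when 1 replicate was left out (1 without replicate 6 of the C57BL/6 mutants, replicate 13 or replicate 16). Between mutants it was 2 to 4. Calls among the within-group correlations stayed at 0 under each alternative. Directions changed as follows. With total counts, Pdgfrb was at 0.00246 in BALB/c, and between wild types Pdgfrb was at -0.10, Tagln at -0.0833 and Smtn at -0.0244, where the median of all genes moved by -0.11. With DESeq2 and RLE size factors Pdgfrb was at -0.00645 and -0.00651 between wild types and Smtn at -0.00282 and -0.00272 between mutants. With the Ddx3y covariate Myh11 was at 0.10, Cnn1 at 0.0395 and Lmod1 at 0.19 between wild types. With both of these libraries left out Lmod1 was at -0.57 in BALB/c, and between mutants Acta2 was at -0.28, Cnn1 at -0.0861, Smtn at -0.0354, Lmod1 at -0.27 and Myocd at -0.13. When 1 replicate was left out, the ranges in BALB/c were -0.51 to 0.0761 for Mir145, -0.57 to 0.96 for Lmod1 and -0.52 to 0.14 for Acta2. Between wild types they were -0.0302 to 0.0334 for Pdgfrb and -0.0175 to 0.0829 for Tagln. Between mutants they were -0.25 to 0.40 for Acta2, -0.18 to 1.13 for Cnn1, -0.0277 to 0.0492 for Smtn, -0.51 to 1.02 for Lmod1 and -0.0105 to 0.54 for Myocd. The correlation of Mir145 with Cnn1 was 0.0645 with total counts and 0.0699 as Spearman's rho, that with Pdgfrb 0.00609 with total counts, and that with Lmod1 -0.000749 without the 2 samples farthest from the median. When 1 replicate was left out, correlations ranged from -0.18 to 0.17 for Cnn1, -0.11 to 0.38 for Lmod1, -0.23 to 0.67 for Mylk, -0.41 to 0.55 for Mir143 and -0.13 to 0.84 for E330013P06. Share of higher calls moved with total counts from 47.1% to 31.2% between wild types and from 48.8% to 67.8% between mutants. The cause of these changes was not tested. Low rows had few counts a sample, 12 to 136 of Mir145, 4 to 110 of Mir143 and 12 to 64 of Myocd.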

Other observations

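The other 2 microRNA rows called in C57BL/6 were Mir126 and Mir451, singled out after their values were seen. Their p-values in C57BL/6 restate that call and give no separate support. Mir126, a microRNA of endothelial cells that lies in the gene Egfl7, had 4, 4 and 2 counts in C57BL/6 wild type and 24, 20 and 16 in C57BL/6 mutants, and rose by 2.36 on the log2 scale (adjusted p 0.0174, SE 0.606, edgeR). Egfl7 rose as well (log2 1.16, adjusted p 0.0294, SE 0.339, edgeR), from 46.2 CPM ± 6.78 to 103 CPM ± 70.9 (SD, n = 3), with 64.2, 60.1 and 185 CPM in the 3 mutants. The highest of these carried much of the rise in the mean, and all 3 were above wild type (at most 50.4 CPM). Mir451, a microRNA of red cell precursors, had 10, 2 and 6 counts in C57BL/6 wild type and 0 in each of the 3 mutants (adjusted p 0.0138, edgeR), where Slc4a1, the anion exchanger of red cells, fell by 2.08 on the log2 scale. In BALB/c neither Mir126 (adjusted p 0.994) nor Mir451 (adjusted p 0.425, edgeR) was called.

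Of 12 pericyte genes, 1 was called higher and 3 lower in BALB/c than in C57BL/6 in wild type, and 1 higher and 3 lower in mutants, beside 48.5% and 36.9% of all genes called in either direction. In both genotypes Rgs5, Cspg4 and Kcnj8 were called. Rgs5, a signalling regulator typical of pericytes, was at 46.7 CPM ± 1.62 in C57BL/6 and 22.6 CPM ± 3.72 in BALB/c wild type (SD, n = 3; log2 -1.05, SE 0.132), and at 41.5 CPM ± 6.85 and 25.5 CPM ± 2.35 in mutants (log2 -0.70, adjusted p 0.00137, edgeR). Cspg4, the NG2 proteoglycan, was lower in BALB/c as well (log2 -0.55 and -0.58), while Kcnj8, a potassium channel subunit, was higher (0.55 and 0.39). Abcc9 was called lower in wild type alone (-0.30, adjusted p 0.0356, against -0.17, adjusted p 0.236, in mutants) and Heyl in mutants alone (-0.34, adjusted p 0.0120, against -0.03, adjusted p 0.784, in wild type, all edgeR). The difference between the genotypes was not called for either gene (adjusted p 0.591 and 0.138, edgeR). Ndufa4l2 was at 22.2 CPM in C57BL/6 and 32.5 CPM in BALB/c wild type and at 31.3 and 20.5 CPM in mutants, so its sign turned, and it was called in neither (adjusted p 0.0827 and 0.0705, edgeR). Strain and flow cell cannot be told apart in these values.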
